A study of Mus musculus with 16 samples.

Results

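The Oscillospirales that lie outside the family Oscillospiraceae were described across 16 mouse colons. Their members were all amplicon sequence variants (ASVs, distinct 16S sequences) that the deposited taxonomy places in the order Oscillospirales with a family other than Oscillospiraceae. This gave 162 ASVs of 1901 in the table, or 8.52%, and they held 3.82% of all counts. By family they were 114 Ruminococcaceae, 22 Butyricicoccaceae, 13 UCG-010, 9 [Eubacterium]_coprostanoligenes_group, 2 [Clostridium]_methylpentosum_group and 2 of a family listed as uncultured. They fell into 21 genus-level groups, with an ASV that has no genus name counted at the lowest rank it is named for. Another Oscillospirales ASV has no family name and was not a member.

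These bacteria are strict anaerobes of the large intestine. Cultured Ruminococcaceae are known for breaking down plant cell walls and starch that the host cannot digest, and several make butyrate, the short-chain fatty acid that colonic epithelial cells burn. Butyricicoccus is named for butyrate production, and the [Eubacterium]_coprostanoligenes_group for bacteria that reduce cholesterol to coprostanol, a sterol that the gut absorbs poorly. Most of these roles come from human or other isolates and were not measured here.

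The groups were Mertk knockout (KO) mice on dextran sulfate sodium (DSS), KO mice on water, wild-type (WT) mice on DSS and WT mice on water, with 4 mice in each and 1 library per mouse. All were of C57BL/6J background, and the genotype field of the labels gives C57BL/6 for every mouse, so the genotype was read from the titles. The mice were 8 to 10 weeks old. They drank sterile water, with or without 2.5% DSS, for 7 days, and the distal colon was taken on day 8. DSS, a sulfated dextran, damages the lining of the colon, and Mertk is a receptor with which macrophages take up dying cells. The labels do not say how the Mertk allele was made or whether groups shared cages, so cage and group cannot be told apart. The labels' protocols describe tissue rinsed to remove stool. They are written for an RNA-seq library, so whether the 16S counts came from rinsed tissue is not known. 16S counts do not measure Mertk, and the genotype labels could not be checked with them. Every library held the same total of 96469 counts. Where a taxon has 0 counts, its share may still be up to 0.00311%, a limit for counting error only. Shares are percent of a library's counts. They are coupled: where another taxon takes more of a library, these take less.

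The summed share of the 162 ASVs was 6.54%, 2.48%, 5.31% and 4.72% in KO mice on DSS, against 2.49%, 2.33%, 1.98% and 2.99% in KO mice on water. WT mice had 4.96%, 3.35%, 4.38% and 3.95% on DSS, against 3.49%, 5.78%, 3.16% and 3.27% on water. The lowest values were those of KO mice on water, and KO DSS mouse 2 lay within their range. The mean was 4.76% ± 1.70 in KO mice on DSS and 2.45% ± 0.420 in KO mice on water, and 4.16% ± 0.681 in WT mice on DSS and 3.92% ± 1.24 in WT mice on water (SD, n = 4 each). The 2 WT groups overlapped, and WT water mouse 2 stood above the other water mice of its genotype. No test was run on this sum. For scale, the Oscillospiraceae held 10.4% ± 2.66, 6.90% ± 1.80, 6.16% ± 2.94 and 4.60% ± 1.02 in the same order of groups.

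**Figure D1:**
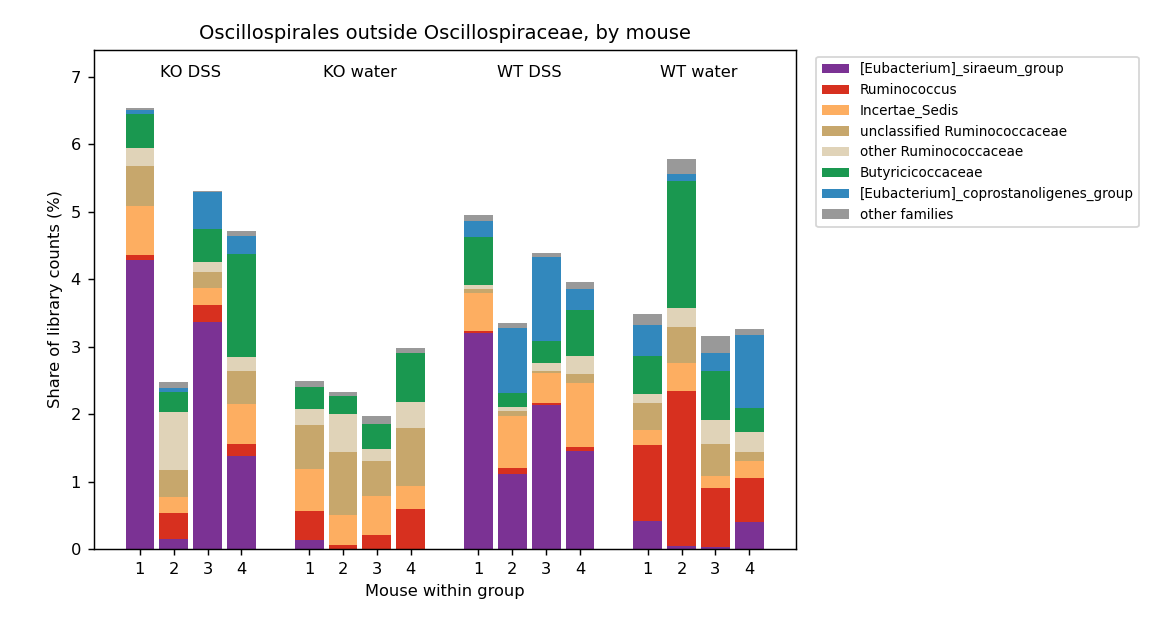
Share of library counts (percent) held by each genus-level group or family, stacked, for each of the 16 mice. The [Eubacterium]_siraeum_group made up 6.30% to 65.6% of these counts in KO mice on DSS and 33.1% to 64.6% in WT mice on DSS, against at most 5.37% in KO mice on water and at most 12.2% in WT mice on water.

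What made up the share differed more than its size. The [Eubacterium]_siraeum_group averaged 41.1% ± 28.5 of these counts in KO mice on DSS, against 1.35% ± 2.68 in KO mice on water. WT mice averaged 45.8% ± 14.2 on DSS, against 6.38% ± 6.46 on water (SD, n = 4 each). Ruminococcus made up 0.523% to 2.82% of these counts in WT mice on DSS, against 20.2% to 39.9% in WT mice on water.

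Differences were tested with edgeR's quasi-likelihood test in 1 fit over all families, genus-level groups or ASVs of the table, with Benjamini-Hochberg adjustment over that table and a threshold of 0.05. Of the 6 families 5 could be tested. Ruminococcaceae held 5.95%, 2.04%, 4.25% and 2.84% in KO mice on DSS, against 2.08%, 2.01%, 1.49% and 2.18% in KO mice on water. KO DSS mouse 2 lay within the range of the water mice and the other 3 above it. The log2 fold change was 0.96 (SE 0.39), and it missed the threshold in edgeR's quasi-likelihood test (Benjamini-Hochberg adjusted p = 0.0516, but 0.0400 with TMM scaling and 0.0190 without KO DSS mouse 2). It also passed without KO DSS mouse 4 and without some single WT mice, but not in the other fits without 1 mouse. Without 1 mouse the log2 fold change was 0.65 to 1.17. In WT mice the family held 2.91% ± 0.747 on DSS and 2.38% ± 0.835 on water. Butyricicoccaceae held 0.699% ± 0.563 in KO mice on DSS and 0.422% ± 0.204 in KO mice on water, and 0.486% ± 0.250 in WT mice on DSS and 0.881% ± 0.682 in WT mice on water, and no comparison of this family passed. UCG-010, a family known only by a number, held 0.0474% ± 0.0359, 0.0803% ± 0.0240, 0.0754% ± 0.0237 and 0.148% ± 0.0660 in KO mice on DSS, KO mice on water, WT mice on DSS and WT mice on water, and did not pass either.

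At family level, calls came from the [Eubacterium]_coprostanoligenes_group and the [Clostridium]_methylpentosum_group, each of which is also a genus-level group and is described with the genera. In KO mice on DSS against KO mice on water 1 of the 5 families passed, where 42.1% of all families in the table did. In WT mice on DSS against water 1 passed (29.8% of all families), in KO against WT mice on water 1 (36.8%), and in the interaction, the log2 effect of DSS in KO mice less that in WT mice, 2 (12.3%). The interaction of the [Clostridium]_methylpentosum_group (edgeR's quasi-likelihood test, adjusted p = 0.0393 over families) was lost in 11 of 17 alternatives, 10 of them without 1 mouse, and did not pass over genus-level groups (0.0932). In KO against WT mice on DSS edgeR's quasi-likelihood test called 0 of 5 (24.6% of all families), with 1 at an unadjusted p under 0.05.

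Of the 21 genus-level groups 19 could be tested, and 17 reached a mean of 0.01% in at least 1 of the 4 groups of mice. In KO mice on DSS against KO mice on water 2 groups rose and 0 fell, where 32.5% of all genus-level groups in the table passed in either direction. In WT mice on DSS against WT mice on water 0 rose and 4 fell, where 31.7% passed in the table. Centred log-ratios gave 3 that rose and 6 that fell in WT mice, and median-ratio size factors 1 and 4. On water, 2 groups were higher and 5 lower in KO than in WT mice (40.5% of all groups), but 5 higher and 5 lower on centred log-ratios and 1 and 5 with TMM scaling. On DSS, 2 were higher and 1 lower in KO than in WT mice (23.0% of all groups), but 5 and 1 on centred log-ratios, and 2 were higher and 0 lower in the interaction (8.73% of all groups), but 2 and 1 on centred log-ratios. In each of the 4 pairwise comparisons the share called was smaller than in the table, a difference that was not tested. The genera follow by what their cultured relatives are known to do.

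**Figure D2:**
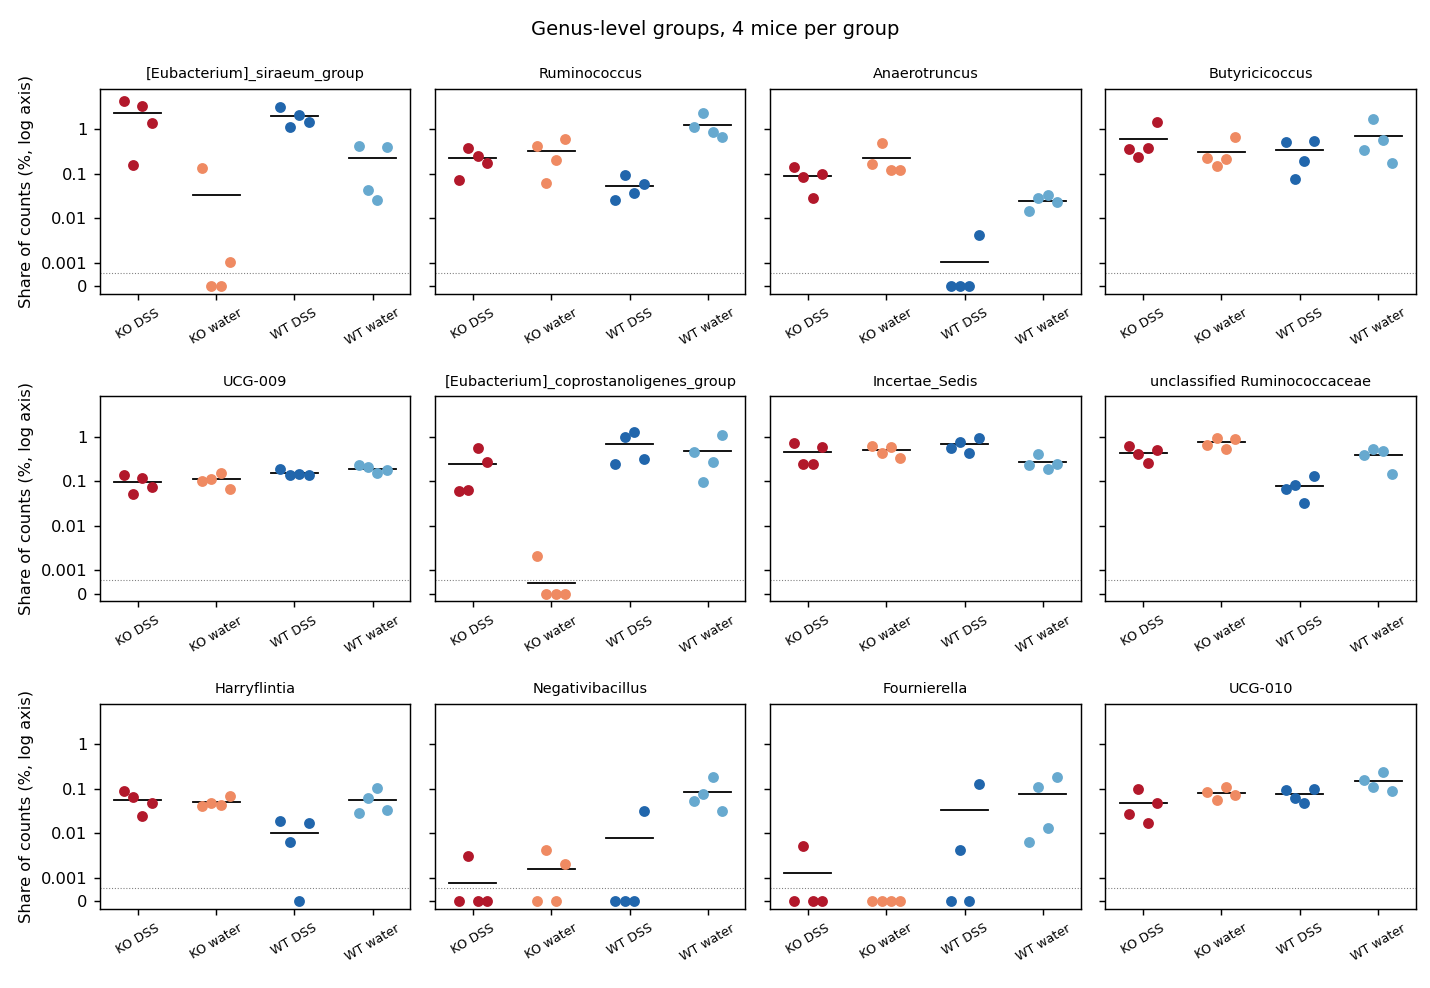
Share of counts (percent, log axis, with 0 drawn below the dotted line) of 12 genus-level groups. Each dot is a mouse and each line the mean of 4 mice. Anaerotruncus lay at 0.0280% to 0.142% in KO mice on DSS and at 0 to 0.00415% in WT mice on DSS, and the [Eubacterium]_coprostanoligenes_group was at 0 in 3 of 4 KO mice on water.

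The first role is the degradation of plant polysaccharides. Of 4 genera listed for it the table holds 2, the [Eubacterium]_siraeum_group and Ruminococcus. In KO mice on DSS 1 of the 2 rose against water, and in WT mice 1 of the 2 fell. The [Eubacterium]_siraeum_group is named for a bacterium that degrades xylan and was isolated from humans. It held 4.29%, 0.157%, 3.37% and 1.38% in KO mice on DSS, against 0.134%, 0%, 0% and 0.00104% in KO mice on water. All 4 KO mice on DSS lay above all 4 KO mice on water. The group was 68.2-fold higher (log2 fold change 6.09, SE 1.73; edgeR's quasi-likelihood test, Benjamini-Hochberg adjusted p = 0.0106). KO water mouse 1 sets the water mean, and without it the mean lies under 3 counts per library, so that no fold can be given.

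In WT mice the [Eubacterium]_siraeum_group held 3.21%, 1.11%, 2.13% and 1.46% on DSS, against 0.410%, 0.0435%, 0.0259% and 0.399% on water. These 2 groups did not overlap either, and the mean was 9.0-fold higher on DSS. The log2 fold change of 3.17 (SE 1.50) missed the threshold in edgeR's quasi-likelihood test (adjusted p = 0.127), but passed without KO water mouse 1 (0.0199) and on the 8 WT libraries alone (0.0170). The interaction did not pass (log2 2.92, SE 2.00, adjusted p = 0.468) except without KO water mouse 1 (adjusted p = 0.0028). The level under DSS was 2.30% ± 1.87 in KO mice and 1.98% ± 0.923 in WT mice (SD, n = 4 each), 1.16-fold apart and well within the spread (edgeR's quasi-likelihood test, adjusted p = 1). On water it was 6.52-fold lower in KO than in WT mice and did not pass (adjusted p = 0.169, but 0.000813 without KO water mouse 1).

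Although KO and WT mice on DSS held like levels of the [Eubacterium]_siraeum_group, its leading ASV differed. ASV32 had 4080, 80, 3180 and 1260 counts in KO mice on DSS, against 53, 71, 60 and 75 in WT mice on DSS. ASV37 had 58, 71, 67 and 75 counts in KO mice on DSS, against 3039, 998, 1996 and 1333 in WT mice on DSS. Neither pair of groups overlapped, and in KO DSS mouse 2 the ASVs were nearly equal. ASV32 made up 53.0% to 98.6% of the group's counts in KO mice on DSS, while ASV37 made up 93.4% to 98.3% in WT mice on DSS. ASV32 was 33.2-fold higher in KO mice on DSS (log2 fold change 5.04, SE 1.86; edgeR's quasi-likelihood test, adjusted p = 0.0487, lost in 11 of 26 alternatives). ASV37 was 27.2-fold lower in KO mice on DSS (log2 fold change -4.77, SE 0.94; edgeR's quasi-likelihood test, adjusted p = 0.00329, kept in all 26 alternatives).

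On water ASV32 had 129, 0, 0 and 1 counts in KO mice, against 0 in all 4 WT mice. ASV37 had 0 in all 4 KO mice, against 207, 39, 20 and 384 in WT mice. ASV32 passed as at least 10.8-fold higher in KO mice on water on the counts of KO water mouse 1, and did not pass without that mouse (edgeR's quasi-likelihood test, adjusted p = 0.0161, and 0.264 without it). ASV37 was at least 54.2-fold lower in KO mice on water (edgeR's quasi-likelihood test, adjusted p = 6.56e-05, and at least 29.6-fold without WT water mouse 4). Within WT mice ASV37 was 11.3-fold higher on DSS than on water (edgeR's quasi-likelihood test, adjusted p = 0.0227, 20.8-fold without WT water mouse 4 and adjusted p = 0.0506 without WT DSS mouse 1). ASV700, another ASV of the group chosen after its values were seen, had no count in KO mice or WT mice on DSS and 188, 3, 5 and 1 counts in WT mice on water.

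The small counts of ASV37 in KO mice on DSS and of ASV32 in WT mice on DSS had narrow ranges, 58 to 75 and 53 to 75, while the same ASV spanned 998 to 3039 and 80 to 4080 in the other DSS group. Both ASVs passed the test for a rise on DSS through these counts. ASV37 in KO mice on DSS was at least 22.6-fold above KO mice on water (edgeR's quasi-likelihood test, adjusted p = 0.000441). ASV32 in WT mice on DSS was at least 21.6-fold above WT mice on water (edgeR's quasi-likelihood test, adjusted p = 0.0262, and 0.0505 to 0.0562 without any single WT water mouse). Setting to 0 the ASVs of a DSS group averaging less than 5% of their level in the opposite DSS group took 4 of these ASVs in KO mice and 9 in WT mice. It ended both calls, with adjusted p of 1. Whether low counts passed between libraries of the DSS groups was not tested.

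Ruminococcus includes human and ruminant species that degrade cellulose or resistant starch. It held 0.0259%, 0.0943%, 0.0373% and 0.0591% in WT mice on DSS, against 1.13%, 2.30%, 0.877% and 0.658% in WT mice on water. No DSS mouse came near the lowest water mouse. In WT mice the genus fell 22.9-fold on DSS (log2 fold change -4.52, SE 0.83; edgeR's quasi-likelihood test, adjusted p = 0.00102, kept in all 26 alternatives).

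In KO mice Ruminococcus held 0.0726%, 0.376%, 0.255% and 0.176% on DSS, against 0.424%, 0.0612%, 0.202% and 0.596% on water. These 2 groups overlapped, with a log2 fold change of -0.54 (SE 0.72; edgeR's quasi-likelihood test, adjusted p = 0.650). The interaction passed (log2 3.97, SE 1.05; edgeR's quasi-likelihood test, adjusted p = 0.0230), but not without WT DSS mouse 3 or WT water mouse 2, with a highest adjusted p of 0.0593 over 25 alternatives. The genotypes also differed on water, where KO mice held 0.321% ± 0.237 and WT mice 1.24% ± 0.733, 3.87-fold lower in KO mice (SD, n = 4 each; edgeR's quasi-likelihood test, adjusted p = 0.0434, lost in 16 of 26 alternatives with values up to 0.148). On DSS KO mice were 4.06-fold higher than WT mice, which did not pass (edgeR's quasi-likelihood test, adjusted p = 0.0603, but 0.0488 with TMM scaling and 0.0126 with DESeq2).

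Behind the genus stood 3 ASVs with different patterns. ASV77 had 4, 0, 72 and 36 counts in KO mice on DSS, against 322, 33, 166 and 342 in KO mice on water. In WT mice it had 0 in all 4 DSS mice, against 674, 2043, 686 and 548 in the water mice. ASV77 led Ruminococcus on water in both genotypes, with 59.5% to 85.1% in the 3 KO mice that had at least 100 counts of the genus and 62.0% to 91.9% in WT mice. In KO water mouse 2, with fewer counts, it had 33 and ASV259 26. On DSS it fell at least 329-fold in WT mice (edgeR's quasi-likelihood test, adjusted p = 0.00112), and at least 212-fold without WT water mouse 2. In KO mice its mean was also lower on DSS, with at most 72 counts against up to 342 on water. These 2 groups overlapped, and none of the 3 tested Ruminococcus ASVs passed in that comparison. On DSS ASV77 was at least 9.33-fold higher in KO than in WT mice (edgeR's quasi-likelihood test, adjusted p = 0.00718), and at least 4.44-fold without KO DSS mouse 3. Its interaction was 9.99 on the log2 scale (SE 2.15; edgeR's quasi-likelihood test, adjusted p = 0.0129, kept in all 25 alternatives); since all WT mice on DSS were at 0, this size depends on the prior count.

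ASV259 had 66, 363, 171 and 134 counts in KO mice on DSS, against 14, 26, 29 and 165 in KO mice on water. In WT mice it had 3, 6, 7 and 7 on DSS, against 0 in all 4 water mice. It was the main Ruminococcus ASV of KO mice on DSS, with 69.5% to 100% of the genus in the 3 mice that had at least 100 counts of it. It was 31.9-fold higher in KO than in WT mice on DSS, and at least 19.5-fold higher on water (edgeR's quasi-likelihood test, adjusted p = 0.00757 and 0.000464; at least 7.67-fold on water without KO water mouse 4). ASV285 had 0 in all 8 KO mice, against 22, 85, 29 and 50 counts in WT mice on DSS and 413, 179, 160 and 87 in WT mice on water. Its level was at least 15.5-fold lower in KO mice on DSS and at least 69.9-fold lower in KO mice on water (edgeR's quasi-likelihood test, adjusted p = 0.00178 and 0.000382). Each genotype thus had a Ruminococcus ASV that the other held at 7 counts or fewer.

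**Figure D3:**
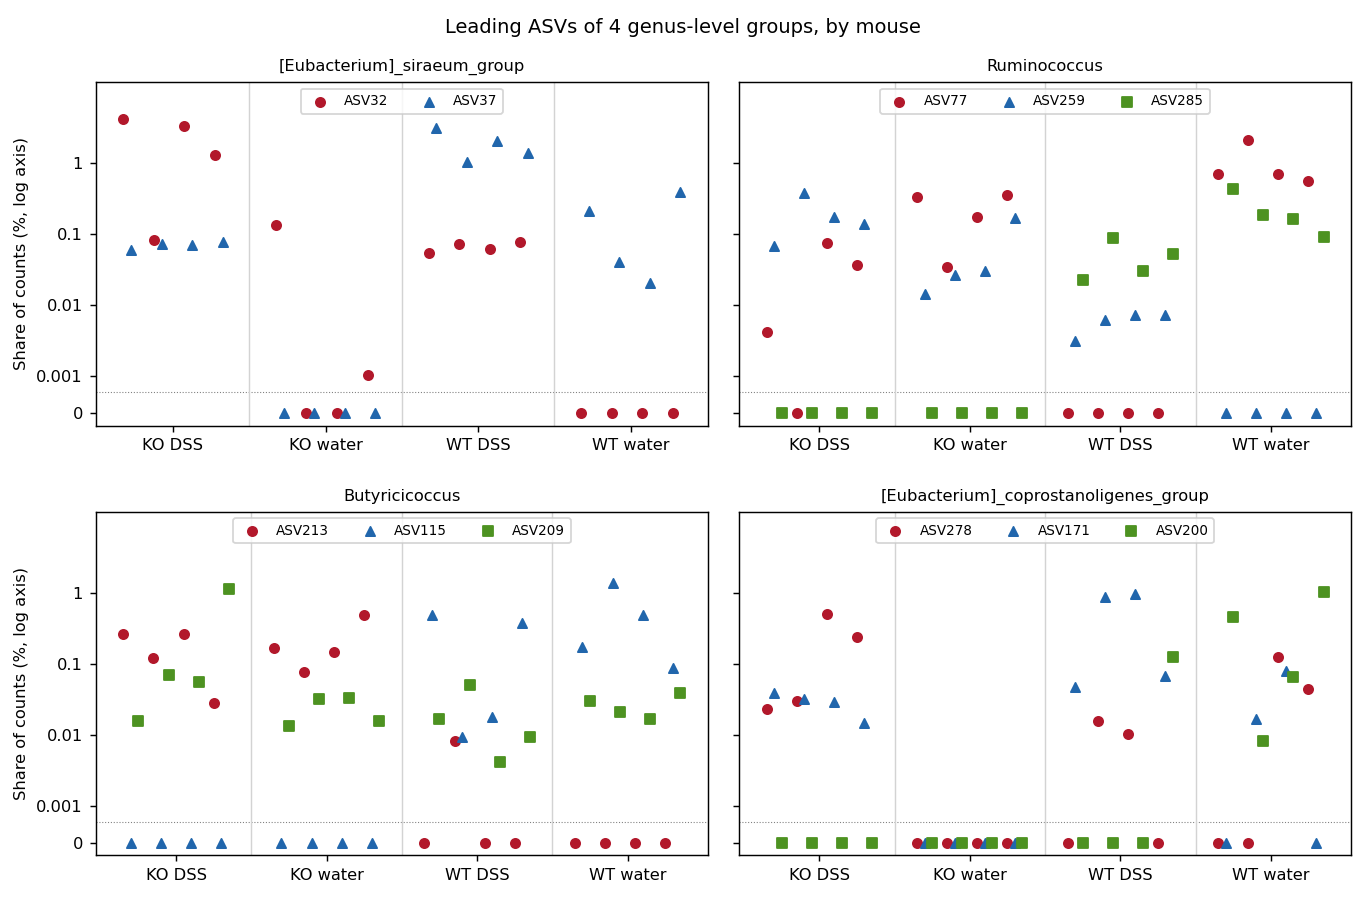
Share of counts (percent, log axis, with 0 below the dotted line) of the leading ASVs of 4 genus-level groups, 1 symbol per mouse. ASV32, ASV259 and ASV213 lay higher in KO mice on DSS than in WT mice on DSS, and ASV37, ASV115 and ASV285 lay lower. The small counts of ASV32 in WT mice on DSS, 53 to 75, lie in a narrow band.

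The second role is the making of butyrate. Of 6 genera listed for it the table holds 5, and Faecalibacterium and Subdoligranulum stayed under 0.01% in every group mean. In KO mice on DSS against water 0 of the 5 rose or fell, and in WT mice 1 fell. In KO against WT mice 1 was higher on water and 1 on DSS, and each of these calls was Anaerotruncus. Anaerotruncus, described from human stool, held 0.142%, 0.0829%, 0.0280% and 0.0995% in KO mice on DSS, against 0.168%, 0.501%, 0.119% and 0.122% in KO mice on water. In WT mice it held 0%, 0%, 0% and 0.00415% on DSS, against 0.0145%, 0.0290%, 0.0332% and 0.0228% on water. Every KO mouse on DSS lay above every WT mouse on DSS, and likewise on water.

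On water Anaerotruncus was 9.15-fold higher in KO than in WT mice (log2 fold change 3.19, SE 0.95; edgeR's quasi-likelihood test, adjusted p = 0.0185). Without KO water mouse 2 it was 5.49-fold higher, with an adjusted p of 0.0628. On DSS the log2 fold change between KO and WT mice was 6.24 (SE 1.16; edgeR's quasi-likelihood test, adjusted p = 0.00140), and without WT DSS mouse 4, the one with a count, KO mice were at least 28.3-fold higher. In WT mice the genus fell on DSS (log2 fold change -4.42, SE 1.09; edgeR's quasi-likelihood test, adjusted p = 0.00551), at least 8.00-fold without that mouse. In KO mice it was 2.58-fold lower on DSS than on water, which did not pass (edgeR's quasi-likelihood test, adjusted p = 0.302), and the interaction did not pass either (log2 3.05, SE 1.34, adjusted p = 0.213, but 0.0132 without WT DSS mouse 4 and 0.00772 with traces set to 0).

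Anaerotruncus was led by ASV281 in KO mice other than KO water mouse 1, where ASV654, named after its values were seen, had 87 counts. ASV281 had 135, 61, 27 and 95 counts in KO mice on DSS and 71, 437, 62 and 83 in KO mice on water, against 0, 0, 0 and 4 in WT mice on DSS and 0 in all 4 WT mice on water. On water it was at least 54.4-fold higher in KO mice (edgeR's quasi-likelihood test, adjusted p = 0.00115; at least 24.0-fold without KO water mouse 2). In WT water mice 1, 2 and 3 the genus was led by ASV768, chosen after its values were seen, while in WT water mouse 4 ASV654 had 9 counts. ASV768 had 4, 9, 8 and 16 counts in KO mice on water, against 14, 28, 32 and 7 in WT mice on water. ASV768 had no count in any WT mouse on DSS and fell there at least 6.75-fold (edgeR's quasi-likelihood test, adjusted p = 0.0227).

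Butyricicoccus held 0.350%, 0.234%, 0.369% and 1.46% in KO mice on DSS, against 0.230%, 0.15%, 0.217% and 0.654% in KO mice on water. The WT mice held 0.523%, 0.0767%, 0.193% and 0.542% on DSS, against 0.334%, 1.66%, 0.584% and 0.177% on water. All 4 groups overlapped, and no comparison of the genus passed. Of its 10 tested ASVs, 2 were higher and 3 lower in KO than in WT mice on water, and 3 were higher and 1 lower on DSS. The shares called, 50.0% and 40.0%, were near the 52.8% and 37.7% of all tested ASVs. ASV115 had 0 in all 8 KO mice, against 470, 9, 17 and 365 counts in WT mice on DSS and 168, 1312, 474 and 84 in WT mice on water. ASV115 was at least 71.8-fold lower in KO than in WT mice on DSS and at least 170-fold lower on water (edgeR's quasi-likelihood test, adjusted p = 0.00576 and 0.00214). Without WT DSS mouse 1 and without WT water mouse 2 these bounds were 43.4-fold and 80.7-fold.

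ASV213, another Butyricicoccus, had 254, 118, 257 and 27 counts in KO mice on DSS and 162, 74, 143 and 475 in KO mice on water, against 0, 8, 0 and 0 in WT mice on DSS and 0 in all 4 WT mice on water. On water this ASV was at least 71.2-fold higher in KO than in WT mice (edgeR's quasi-likelihood test, adjusted p = 0.00145; at least 42.1-fold without KO water mouse 4). On DSS it was higher too (edgeR's quasi-likelihood test, adjusted p = 0.0132), and at least 54.7-fold without WT DSS mouse 2, the one with counts. ASV213 and ASV115 thus took opposite genotypes within a genus whose sum did not differ.

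ASV209 was the Butyricicoccus ASV seen in all 16 mice, with 15, 67, 53 and 1098 counts in KO mice on DSS and 13, 31, 32 and 15 in KO mice on water. It had 16, 48, 4 and 9 counts in WT mice on DSS and 29, 20, 16 and 37 in WT mice on water. KO DSS mouse 4 alone exceeded 67 counts. The difference between KO and WT mice on DSS was 16.0-fold (edgeR's quasi-likelihood test, adjusted p = 0.0264). Without KO DSS mouse 4 it was 2.34-fold, and without WT DSS mouse 2 it was 31.9-fold. The call was lost in 8 of 26 alternatives, among them centred log-ratios, the 8 DSS libraries alone and the fits without KO DSS mouse 4 or WT DSS mouse 1, 3 or 4, with adjusted p up to 0.389. ASV559 had 61, 0, 0 and 0 counts in KO mice on DSS, 47, 27, 34 and 134 in KO mice on water and 0 in all 8 WT mice. On water it was at least 20.2-fold higher in KO mice (edgeR's quasi-likelihood test, adjusted p = 0.0248; at least 12.0-fold without KO water mouse 4). ASV581 had 0, 12, 14 and 223 counts in KO mice on DSS, against 0 in all WT mice on DSS, at least 20.8-fold higher (edgeR's quasi-likelihood test, adjusted p = 0.0344; at least 2.89-fold without KO DSS mouse 4, and not passing without that mouse or any 1 WT DSS mouse).

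UCG-009 of the Butyricicoccaceae, known by a number and counted on the butyrate list by its family, held 0.0961% ± 0.0399 on DSS and 0.109% ± 0.0370 on water in KO mice, and 0.152% ± 0.0254 on DSS and 0.192% ± 0.0348 on water in WT mice (SD, n = 4 each). No comparison of the group passed. Its make-up differed by genotype: 1 or 2 ASVs were detected in each KO mouse, against 4 to 6 in each WT mouse. ASV241 was the other ASV seen in all 16 mice, with 128, 48, 114 and 70 counts in KO mice on DSS and 96, 110, 151 and 65 in KO mice on water. It had 15, 41, 10 and 58 counts in WT mice on DSS and 195, 97, 80 and 52 in WT mice on water, and no comparison of it passed.

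ASV241 made up 94.8% to 100% of UCG-009 in the KO mice with at least 100 counts of the group, against 7.25% to 43.3% in WT mice on DSS and 30.2% to 89.4% in WT mice on water. The remainder in WT mice was ASV569, ASV644, ASV655 and ASV845, named after their values were seen. ASV569 had no count in any KO mouse, against 55, 16, 25 and 46 counts in WT mice on DSS and 7, 56, 14 and 43 in WT mice on water. All 4 were lower in KO than in WT mice on water (edgeR's quasi-likelihood test, adjusted p = 0.00329, 0.0101, 0.0113 and 0.0110). They had no count in KO mice on water, and the lower bounds of the difference were 5.00-fold to 10.0-fold. As these ASVs were chosen with those counts known, the p-values are no separate evidence that the make-up differed. Of all tested ASVs 32.0% were called lower in KO mice on water.

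The third role, the reduction of cholesterol, is represented by the [Eubacterium]_coprostanoligenes_group alone. It held 0.0612%, 0.0632%, 0.558% and 0.272% in KO mice on DSS, against 0.00207%, 0%, 0% and 0% in KO mice on water. In WT mice it held 0.240%, 0.967%, 1.25% and 0.308% on DSS, against 0.460%, 0.0964%, 0.273% and 1.09% on water. The 4 KO mice on water lay below all 12 other mice. In KO mice the group rose on DSS (log2 fold change 8.52, SE 1.36; edgeR's quasi-likelihood test over genus-level groups, adjusted p = 0.000168), at least 76.7-fold without KO water mouse 1, the one with counts. On water it was lower in KO than in WT mice (log2 fold change -9.53, SE 1.41; edgeR's quasi-likelihood test, adjusted p = 7.32e-05), at least 154-fold without that mouse.

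In WT mice the [Eubacterium]_coprostanoligenes_group was 1.44-fold higher on DSS than on water, with overlapping groups (edgeR's quasi-likelihood test, adjusted p = 0.723). On DSS it was 2.90-fold lower in KO than in WT mice, and that too lay within the spread (edgeR's quasi-likelihood test, adjusted p = 0.238). The DSS effect differed between genotypes (interaction log2 8.00, SE 1.58; edgeR's quasi-likelihood test, adjusted p = 0.00233 over genus-level groups and 0.00126 over families). The calls on water, in KO mice and in the interaction held in every alternative.

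No single ASV carried the [Eubacterium]_coprostanoligenes_group. ASV278 had 22, 29, 492 and 228 counts in KO mice on DSS and 0 in all 4 KO mice on water, against 0, 15, 10 and 0 in WT mice on DSS and 0, 0, 122 and 43 in WT mice on water. ASV171 had 37, 31, 28 and 14 counts in KO mice on DSS and 0 in all 4 KO mice on water, against 46, 840, 942 and 65 in WT mice on DSS and 0, 16, 77 and 0 in WT mice on water. ASV200 had 0 in all 8 KO mice, against 0, 0, 0 and 119 counts in WT mice on DSS and 444, 8, 63 and 997 in WT mice on water. Among these 3 ASVs the one with most counts varied within groups. ASV278 led in KO DSS mice 3 and 4 and WT water mouse 3. ASV171 led in KO DSS mice 1 and 2, WT DSS mice 1, 2 and 3 and WT water mouse 2. ASV200 led in WT DSS mouse 4 and WT water mice 1 and 4. In WT DSS mouse 1 ASV171 made up 19.8% of the group's counts.

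In KO mice on DSS against water, ASV278 was at least 64.2-fold higher and ASV171 at least 9.17-fold higher (edgeR's quasi-likelihood test, adjusted p = 0.0313 and 0.0357). ASV171 lost the call without any 1 of the 8 KO mice, and ASV278 without KO DSS mouse 3 or 4 or any 1 KO water mouse (highest adjusted p 0.0740 and 0.0669), and both lost it with traces set to 0. Without KO DSS mouse 3 ASV278 was at least 31.0-fold higher. On water ASV200 was at least 126-fold lower in KO than in WT mice (edgeR's quasi-likelihood test, adjusted p = 0.0189; at least 57.2-fold without WT water mouse 4). On water ASV171 and ASV278 were at least 7.75-fold and 13.8-fold lower in KO than in WT mice (edgeR's quasi-likelihood test, adjusted p = 0.0145 and 0.0227), and without WT water mouse 3 at least 1.78-fold and 4.78-fold lower. In each, 2 of 4 WT water mice had counts, and both calls were lost on centred log-ratios and on the 8 water libraries alone (highest adjusted p 0.182 and 0.174). ASV590 had 0 in all 8 KO mice, against 0, 78, 251 and 0 counts in WT mice on DSS and 0, 17, 0 and 9 in WT mice on water. It was at least 27.4-fold lower in KO mice on DSS (edgeR's quasi-likelihood test, adjusted p = 0.0411, lost in 11 of 25 alternatives with values up to 0.0967; at least 8.67-fold without WT DSS mouse 3).

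Of 9 further names listed as without a well described role the table holds 7, and 6 could be tested. None passed in KO mice on DSS against water, in WT mice on DSS against water, in KO against WT mice on DSS or in the interaction. On water 1 was higher in KO than in WT mice, Paludicola, and 1 was lower, Negativibacillus. Negativibacillus held 0%, 0.00415%, 0% and 0.00207% in KO mice on water, against 0.0529%, 0.0746%, 0.182% and 0.0321% in WT mice on water. It was lower in KO mice (log2 fold change -5.67, SE 1.80; edgeR's quasi-likelihood test, adjusted p = 0.0230, and 0.0556 without KO water mouse 3). On DSS it was at 0 in 3 of 4 KO mice and 3 of 4 WT mice, with 0.00311% in KO DSS mouse 2 and 0.0321% in WT DSS mouse 4. The 10.6-fold difference between WT mice on DSS and on water did not pass (edgeR's quasi-likelihood test, adjusted p = 0.124, but 0.00395 without WT DSS mouse 4).

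Paludicola held 0.0187%, 0.00933%, 0.0145% and 0.00933% in KO mice on water, against 0.00415%, 0%, 0% and 0% in WT mice on water. The genus was higher in KO mice (log2 fold change 3.49, SE 1.33; edgeR's quasi-likelihood test, adjusted p = 0.0437, lost in 14 of 26 alternatives with values up to 0.114), at least 4.17-fold without WT water mouse 1. Its single tested ASV, ASV855, named after its values were seen, was in all 8 KO mice and in no WT mouse. It was at least 4.25-fold higher in KO than in WT mice on DSS and at least 4.17-fold on water (edgeR's quasi-likelihood test, adjusted p = 0.00644 and 0.00404).

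Incertae_Sedis, a Ruminococcaceae group of uncertain placement, held 0.559%, 0.767%, 0.438% and 0.945% in WT mice on DSS, against 0.234%, 0.414%, 0.185% and 0.243% in WT mice on water. The groups did not overlap, and the mean was 2.52-fold higher on DSS, which missed the threshold (edgeR's quasi-likelihood test, adjusted p = 0.0758; with size factors from median ratios 0.0477, and 0.00511 with DESeq2). In KO mice it held 0.447% ± 0.244 on DSS and 0.495% ± 0.134 on water (SD, n = 4 each). ASV146 had 16, 38, 39 and 12 counts in KO mice on DSS, against 481, 614, 365 and 174 in WT mice on DSS. It was 15.6-fold lower in KO mice (log2 fold change -3.96, SE 1.27; edgeR's quasi-likelihood test, adjusted p = 0.0275, lost without KO DSS mouse 1 or 4 or WT DSS mouse 2, highest 0.0653).

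ASV191, whose species field reads Acutalibacter_muris, a bacterium isolated from mice, ran the other way. It had 103, 92, 61 and 394 counts in KO mice on DSS, against 0, 6, 0 and 22 in WT mice on DSS, and 411, 232, 86 and 103 in KO mice on water, against 0, 136, 12 and 0 in WT mice on water. The DSS groups did not overlap and the mean was 23.2-fold higher in KO mice, but no comparison of ASV191 passed edgeR's quasi-likelihood test over all ASVs (on DSS adjusted p = 0.0677, but 0.0208 with DESeq2 and 0.0485 without WT water mouse 2, the mouse with 136 counts). ASV269 had 373, 8, 19 and 16 counts in KO mice on DSS and 0, 0, 34 and 16 in KO mice on water, against 9, 5, 0 and 406 in WT mice on DSS and 0, 13, 7 and 17 in WT mice on water. A single mouse made its mean in each DSS group. ASV748 had 0 in all 4 KO mice on DSS and 5, 9, 11 and 13 counts in KO mice on water, against 20, 51, 0 and 12 in WT mice on DSS and 0, 0, 5 and 0 in WT mice on water. Its interaction was -10.20 on the log2 scale (SE 2.70; edgeR's quasi-likelihood test, adjusted p = 0.0429, lost in 17 of 25 alternatives).

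Harryflintia held 0.0902%, 0.0663%, 0.0238% and 0.0466% in KO mice on DSS, against 0.0187%, 0.00622%, 0% and 0.0166% in WT mice on DSS. On water it held 0.0495% ± 0.0129 in KO mice and 0.0565% ± 0.0342 in WT mice (SD, n = 4 each). WT mice on DSS were lowest and overlapped neither KO mice on DSS nor WT mice on water, but neither difference passed (edgeR's quasi-likelihood test, adjusted p = 0.0639 and 0.0528, and 0.00689 and 0.0115 with DESeq2). ASV671 of this genus had 15, 9, 3 and 11 counts in KO mice on DSS and 6, 12, 0 and 6 in KO mice on water, against 0 in all 4 WT mice on DSS and 13, 16, 86 and 21 in WT mice on water. It fell on DSS in WT mice, at least 11.3-fold (edgeR's quasi-likelihood test, adjusted p = 0.00931, but 0.0535 with the replicate block; at least 5.56-fold without WT water mouse 3). Its interaction was 8.73 on the log2 scale (SE 2.04; edgeR's quasi-likelihood test, adjusted p = 0.0209, but 0.0867 with no filter and 0.112 with the replicate block).

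The 46 Ruminococcaceae ASVs without a genus name, summed, held 0.602%, 0.399%, 0.250% and 0.50% in KO mice on DSS, against 0.650%, 0.940%, 0.522% and 0.867% in KO mice on water. In WT mice they held 0.0684%, 0.0840%, 0.0332% and 0.134% on DSS, against 0.389%, 0.536%, 0.471% and 0.146% on water. All WT mice on DSS lay below all mice of the other 3 groups. The sum fell 4.83-fold on DSS in WT mice (log2 fold change -2.27, SE 0.60; edgeR's quasi-likelihood test, adjusted p = 0.00756). On DSS it was 5.48-fold higher in KO than in WT mice (log2 fold change 2.45, SE 0.60; edgeR's quasi-likelihood test, adjusted p = 0.00742). Both calls held in all 26 alternatives. In KO mice the sum was 1.70-fold lower on DSS than on water and did not pass (edgeR's quasi-likelihood test, adjusted p = 0.380), and the interaction did not pass (log2 1.50, SE 0.81, adjusted p = 0.332).

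Within this pool ASV320, whose species field reads [Clostridium]_leptum, had 24, 32, 0 and 9 counts in KO mice on DSS and 112, 185, 98 and 77 in KO mice on water, against 0 in all 4 WT mice on DSS and 57, 81, 33 and 31 in WT mice on water. Clostridium leptum is a human gut bacterium. ASV370 had 57, 7, 0 and 46 counts in KO mice on DSS and 38, 108, 46 and 155 in KO mice on water, against 0 in all 4 WT mice on DSS and 7, 56, 78 and 14 in WT mice on water. Both were without a count in WT mice on DSS and kept counts in 3 of 4 KO mice on DSS. In WT mice they were at least 16.8-fold and 12.9-fold lower on DSS (edgeR's quasi-likelihood test, adjusted p = 0.00455 and 0.0151; ASV370 at least 8.56-fold without WT water mouse 3). On DSS they were at least 5.42-fold and 9.17-fold higher in KO than in WT mice (edgeR's quasi-likelihood test, adjusted p = 0.00600 and 0.00905; ASV370 at least 5.89-fold without KO DSS mouse 1).

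ASV925 of the same pool had 0 in all 8 DSS mice, against 8, 13, 6 and 12 counts in KO mice on water and 2, 11, 15 and 5 in WT mice on water. It fell at least 3.25-fold in KO mice and at least 2.75-fold in WT mice (edgeR's quasi-likelihood test, adjusted p = 0.0194 and 0.0221). Both calls were lost with no filter and with the replicate block, and the call in WT mice also on the WT libraries alone. The highest adjusted p over the alternatives was 0.129 in KO mice and 0.148 in WT mice. These comparisons share no mouse, but all mice were fitted together, and ASV925 passed the filter through water mice alone. ASV360 had 257, 30, 82 and 129 counts in KO mice on DSS, against 5, 2, 0 and 0 in KO mice on water, and 13, 10, 4 and 7 in WT mice on DSS, against 7, 48, 0 and 0 in WT mice on water. It rose on DSS in KO mice (log2 fold change 6.03, SE 1.90; edgeR's quasi-likelihood test, adjusted p = 0.0468, lost in 15 of 26 alternatives). ASV637 had 39, 4, 41 and 59 counts in KO mice on DSS, against 0 in all 4 WT mice on DSS, at least 11.9-fold higher (edgeR's quasi-likelihood test, adjusted p = 0.0179).

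ASV290 had 17, 176, 0 and 30 counts in KO mice on DSS and 60, 161, 149 and 99 in KO mice on water, against 0, 0, 0 and 7 in WT mice on DSS and 11, 161, 28 and 0 in WT mice on water, and did not pass. ASV439 had 241 and 180 counts in KO water mice 1 and 2 and 13 in WT water mouse 2, and none elsewhere. ASV263 holds most counts of a group whose genus field repeats the family name Ruminococcaceae. It had 11, 671, 43 and 18 counts in KO mice on DSS and 7, 9, 0 and 167 in KO mice on water, against 6, 6, 88 and 38 in WT mice on DSS and 0 in all 4 WT mice on water. It was at least 15.2-fold higher in KO than in WT mice on water (edgeR's quasi-likelihood test, adjusted p = 0.0156), but at least 1.78-fold and not passing (0.0509) without KO water mouse 4. In WT mice it was at least 11.5-fold higher on DSS (edgeR's quasi-likelihood test, adjusted p = 0.0396, lost with traces set to 0 and in 8 other alternatives, and at least 5.56-fold without WT DSS mouse 3). The summed group held 0.193% ± 0.336 in KO mice on DSS and 0.0474% ± 0.0839 in KO mice on water, and 0.0516% ± 0.0273 in WT mice on DSS and 0.00285% ± 0.00391 in WT mice on water (SD, n = 4 each). No comparison of it passed.

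**Figure D4:**
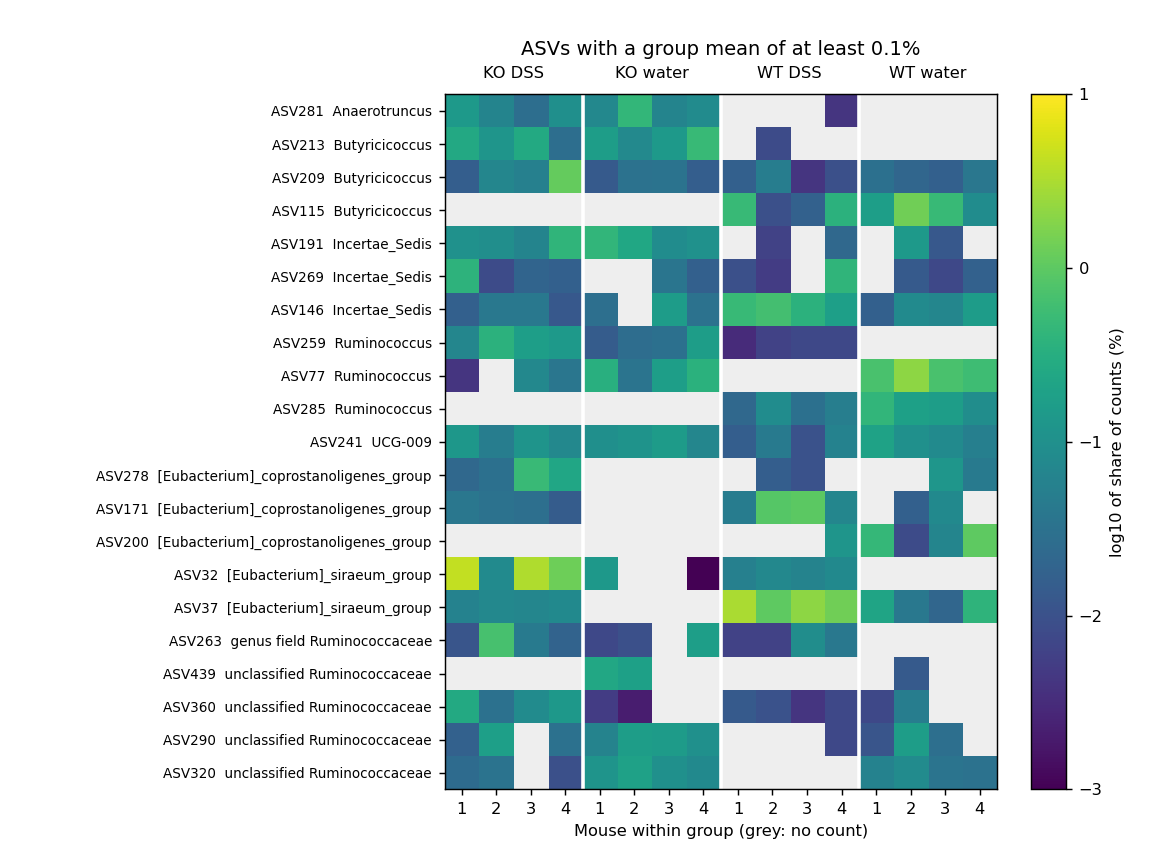
Share of counts (log10 of percent, grey where no count was found) of the 21 ASVs with a mean of at least 0.1% in at least 1 of the 4 groups, by mouse. ASV115 and ASV285 are without a count in all KO mice, and ASV171, ASV200, ASV278 and ASV37 are without a count in KO mice on water.

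Among smaller genera, Fournierella held 0% in all 4 KO mice on water, against 0.00622%, 0.109%, 0.0135% and 0.180% in WT mice on water. It was at least 24.8-fold lower in KO mice (edgeR's quasi-likelihood test, adjusted p = 0.0185; at least 13.8-fold without WT water mouse 4). Anaerofilum had no count in any KO mouse, against 0%, 0.00518%, 0.0207% and 0.00622% in WT mice on DSS and 0.0135%, 0.00518%, 0.0104% and 0.0124% in WT mice on water. It was at least 2.58-fold lower in KO mice on DSS and at least 3.33-fold lower on water (edgeR's quasi-likelihood test, adjusted p = 0.0185 and 0.0129). On DSS the bound was 1.22-fold without WT DSS mouse 3, and the call was lost on the 8 DSS libraries alone and with the replicate block. The [Clostridium]_methylpentosum_group held 0.0104%, 0%, 0% and 0.0104% in KO mice on DSS and 0%, 0%, 0% and 0.0124% in KO mice on water, against 0% in all 4 WT mice on DSS and 0.0104%, 0.113%, 0.00726% and 0.00104% in WT mice on water. It fell in WT mice on DSS at least 10.6-fold (edgeR's quasi-likelihood test over genus-level groups, adjusted p = 0.0201, and over families 0.00904). Without WT water mouse 2 the bound was 2.00-fold and neither call passed (adjusted p = 0.0782 and 0.0672). UBA1819 stayed under 0.0332% in every mouse but KO DSS mouse 3 and passed nowhere.

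At the level of ASVs, 93 of the 162 reached 10 counts in sum and were seen in 3 or more libraries, and these were tested, among 1056 of 1901 in the table. A member that passed this filter through a single group had to differ, so the counts are set beside those of all tested ASVs. In KO mice on DSS against water 5 were higher and 1 lower, where 7.2% of all tested ASVs were higher and 6.16% lower. On centred log-ratios (pseudocount 0.5) the split was 10 higher and 9 lower. In WT mice on DSS against water 4 were higher and 6 lower, all of them Ruminococcaceae, where 7.86% of all tested ASVs were higher and 9.0% lower. With traces set to 0 the split was 0 higher and 9 lower in WT mice, and 0 higher and 1 lower in KO mice. That setting also ended the rise of ASV37 in WT mice, whose 998 to 3039 counts on DSS it leaves unchanged. The lost calls therefore do not show which rises rest on small counts.

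More ASVs were called by genotype than by treatment, among these members as over all tested ASVs. By genotype 39.8% of the 93 members were called on water and 33.3% on DSS, against 52.8% and 37.7% of all tested ASVs. By treatment 6.45% were called in KO mice and 10.8% in WT mice, against 13.4% and 16.9%. On water 10 of the 93 were higher and 27 lower in KO than in WT mice, where 20.8% of all tested ASVs were higher and 32.0% lower. On centred log-ratios 14 were higher and 22 lower. Of the 27, 26 had no count in any KO mouse on water. The like count was not made over all tested ASVs, so it is not read as particular to these members. By family, 8 of 62 tested Ruminococcaceae were higher and 13 lower, 2 of 15 Butyricicoccaceae were higher and 7 lower, and 3 of 8 UCG-010 and 3 of 6 [Eubacterium]_coprostanoligenes_group ASVs were lower. On DSS 17 were higher and 14 lower in KO than in WT mice, where 19.0% of all tested ASVs were higher and 18.7% lower. Of these, 14 Ruminococcaceae were higher and 8 lower. In the interaction 4 were higher and 1 lower, where 5.59% of all tested ASVs passed in either direction, and on centred log-ratios 4 were higher and 5 lower. The median log2 fold change on water was -0.71 over these 93 ASVs and -0.18 over all 1056. On DSS it was 0.00 over both.

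The genotype comparisons on water and on DSS share no mice. Of the ASVs higher in KO mice on water, 7 were also higher in KO mice on DSS, which is 70.0% of the water list and 41.2% of the DSS list. Of those lower in KO mice on water 9 were also lower on DSS, which is 33.3% and 64.3% of the lists, and 0 were called in opposite directions. The 7 higher ASVs were ASV213, ASV259, ASV281, ASV32, ASV694, ASV855 and ASV887, and the 9 lower ones ASV115, ASV285, ASV37, ASV569, ASV655, ASV662, ASV698, ASV845 and ASV967. Over all tested ASVs 115 were shared among those higher, 52.3% of the water list and 57.2% of the DSS list, and 142 among those lower, 42.0% and 72.1%. Opposite calls were rare there too, 3 in each direction.

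Of the 162 ASVs 47 were found only in KO mice and 62 only in WT mice, or 29.0% and 38.3%, close to the 28.9% and 40.5% of all ASVs. A further 53, or 32.7%, were found in both genotypes and held 80.5% of the counts. The share found in both was 44.4% for Oscillospiraceae ASVs, 34.2% for Lachnospirales ASVs and 30.7% for all ASVs of the table. By treatment 33 were found only on DSS, 40 only on water and 89 on both, which is 20.4%, 24.7% and 54.9%, against 22.6%, 32.1% and 45.3% of all ASVs. A single mouse held 51 of them, or 31.5%, against 33.4% of all ASVs, and none of these differences in share was tested. Among the 93 tested ASVs 21 had at least 90% of their counts in KO mice and 37 in WT mice, together 62.4%, against 49.6% of Oscillospiraceae, 67.3% of Lachnospirales and 70.2% of all tested ASVs. Per mouse, 47, 46, 43 and 52 of these ASVs were detected in KO mice on DSS, 40, 38, 42 and 44 in KO mice on water, 37, 46, 30 and 60 in WT mice on DSS and 56, 59, 55 and 47 in WT mice on water. Both the fewest and the most were found in WT mice on DSS, in mouse 3 and mouse 4.

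**Figure D5:**
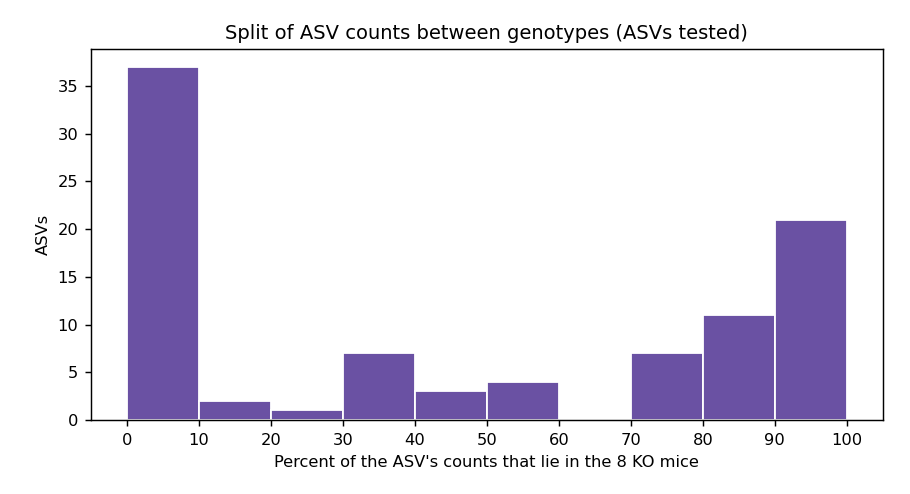
Number of tested ASVs (vertical axis) by the percent of their counts that lay in the 8 KO mice (horizontal axis, 10 bins). Of 93 ASVs, 37 lie in the lowest bin and 21 in the highest, and 4 bins between 20% and 60% hold 1, 7, 3 and 4.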

How the data were processed

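The authors' deposited table holds 16S read counts per ASV with a taxonomic name, and its title calls it even: every library has 96469 counts. The counts were used as deposited. The labels' protocols describe an RNA-seq library of rinsed colon, which a table of 16S counts does not match, so whether DNA or RNA was the template is not known. Not given in the sources used here are the ASV caller, the reference taxonomy and the amplified region. Counts were summed per genus-level group and per family. Features that reached 10 counts in sum and were seen in 3 or more libraries were tested with edgeR 4.0.16 (glmQLFit with robust=TRUE, glmQLFTest; R 4.3.3), with the library total as scaling, 4 group means and all 16 libraries in 1 fit, Benjamini-Hochberg adjustment over the whole table and a threshold of 0.05. The fit was tested on simulated data with the same spread setting for every ASV, no genotype difference and the most abundant ASVs unchanged. ASVs absent from a genotype were not simulated, so the test does not cover such calls.

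A fold is a ratio of mean shares. For a group with no count, 3 counts in each library stand in and the fold is a lower bound; group means between 0 and 3 counts give no fold. Alternatives were TMM, median-ratio size factors, DESeq2 1.42.0, centred log-ratios (pseudocounts 0.5 and 1) in limma 3.58.1, no filter, counts in at least 6 libraries, a replicate block, only the compared groups, each mouse left out, and "traces set to 0". In the last, ASVs of a DSS group with a mean under 5% of the other DSS group's were set to 0. The groups named are genus-level groups with a group mean of at least 0.01%. The ASVs named are those with a group mean of at least 0.1% and for each comparison the most changed of those called, up to 3 each way. Others are marked where they were chosen after their values were seen. The members, role lists and alternatives were chosen with earlier results of these data known. Each library is a separate mouse per the labels' titles. Within each group, no 2 libraries held like counts beyond sampling noise (chi-square per degree of freedom at least 50.8). Libraries of different groups were not compared in this way.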

Additional observations from a re-analysis of the deposited data

Results flagged for a closer look

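In 11 of 65 groups of 4 mice, 1 mouse stood apart from the other 3 by Dixon's test at 95%. The rate of 1 in 20 by chance holds for independent, normally distributed values. These shares include zeros, and families contain genera that were also tested, so the 11 cannot be set against that rate. WT water mouse 2 had a summed share of 5.78%, against at most 3.49% in the other WT water mice, and 0.113% of the [Clostridium]_methylpentosum_group. KO DSS mouse 4 had 1.53% of Butyricicoccaceae and 1.46% of Butyricicoccus, and KO water mouse 4 had 0.654% of Butyricicoccus. KO water mouse 2 had 0.501% of Anaerotruncus, and KO water mouse 1 had 0.134% of the [Eubacterium]_siraeum_group. WT DSS mouse 4 had 0.126% of Fournierella, and WT DSS mouse 1 had 0.190% of UCG-009. The group whose genus field reads Ruminococcaceae had 0.696% in KO DSS mouse 2 and 0.173% in KO water mouse 4.

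The DSS effect differed between KO and WT mice, in edgeR's quasi-likelihood test of the interaction on the log2 scale, for the [Eubacterium]_coprostanoligenes_group (8.00, SE 1.58) and Ruminococcus (3.97, SE 1.05). Among ASVs it differed for ASV37 (5.58, SE 1.34), ASV77 (9.99, SE 2.15), ASV278 (13.28, SE 3.46), ASV671 (8.73, SE 2.04) and ASV748 (-10.20, SE 2.70). Of these calls that of ASV77 was kept in all 25 alternatives. That of ASV278 was lost in 13 of 25, 12 of them without 1 mouse (adjusted p up to 0.0774), and that of ASV748 in 17 of 25, 14 of them without 1 mouse. That of ASV671 was lost in 2, that of Ruminococcus in 3, 2 of them without 1 mouse, and that of ASV37 on both centred log-ratios (adjusted p = 0.181 and 0.409), without KO water mouse 3 (0.0513) and with traces set to 0. In each of these ASVs at least 1 of the 4 groups had no count, so the sizes depend on the prior count.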

How the results depend on the processing

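Of 18 called results of genus-level groups 11 kept direction and call in every alternative run, of 48 of named ASVs 22, and of 5 of families 3. Tested ASVs called in KO DSS against KO water were 6, but 19 and 20 on centred log-ratios (pseudocounts 0.5 and 1), 1 with traces set to 0 and 2 to 7 without 1 mouse. In WT DSS against WT water they were 10, but 23 and 23 on log-ratios, 6 with the replicate block and 8 to 12 without 1 mouse. In KO water against WT water they were 37, but 24 with the block and 24 to 38 without 1 mouse. In KO DSS against WT DSS they were 31, but 13 with the block and 19 to 34 without 1 mouse. In the interaction they were 5, but 8 with DESeq2, 9 and 9 on log-ratios, 3 with no filter, 2 with the block, 3 with traces set to 0 and 2 to 6 without 1 mouse. Genus-level calls in WT DSS against WT water were 4, but 9 and 9 on log-ratios and 4 to 6 without 1 mouse. They were 7 in KO water against WT water (4 to 8 without 1 mouse, and 5 higher and 5 lower on log-ratios). In KO DSS against WT DSS they were 3, but 6 with DESeq2, 6 and 6 on log-ratios and 3 to 4 without 1 mouse, and in the interaction 2, but 1 with the block and 1 to 4 without 1 mouse. Over all ASVs, KO DSS against KO water had 141 calls, but 296 and 297 on log-ratios, 64 with traces set to 0 and 79 to 145 without 1 mouse. WT DSS against WT water had 178, but 314 and 312 on log-ratios, 112 with counts in at least 6 libraries, 82 with the block and 93 to 180 without 1 mouse. KO water against WT water had 558, but 356 with counts in at least 6 libraries, 368 with the block and 426 to 552 without 1 mouse. KO DSS against WT DSS had 398, but 231 with the block and 275 to 399 without 1 mouse. The interaction had 59, but 118 with DESeq2, 299 and 301 on log-ratios, 23 with traces set to 0 and 45 to 67 without 1 mouse. The log2 fold change of Ruminococcaceae in KO DSS against KO water was 1.14 and passed with TMM, and 0.65 to 1.17 without 1 mouse. That of the [Clostridium]_methylpentosum_group family was -7.99 to -0.97 in KO water against WT water and -8.40 to -5.61 in WT DSS against WT water without 1 mouse, and in the interaction 8.71, 8.83 and not passing with TMM, and 6.33 to 13.35 without 1 mouse. The interaction of ASV37 was 5.58, and -3.51 (adjusted p = 1) with traces set to 0, as that setting takes its counts from KO mice on DSS. Centred log-ratios moved the median of all genus-level groups by 0.87 in KO water against WT water and by 0.36 in WT DSS against WT water. Other causes were not tested. Deviations of 24 same-numbered pairs correlated at -0.09 to 0.07, and those of 72 other pairs at -0.09 to 0.14. With deviations taken from means of few mice, this cannot tell whether a replicate number stands for a shared batch. Why calls were lost under the block was not tested. The interaction has no separate fit on only the compared groups. A count of 0 leaves room for a level of up to 3 counts per library, and changes below that level cannot be judged at this depth.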
